A study of Homo sapiens with 6 samples.

Results

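Long intergenic noncoding RNA genes carrying a numbered LINC symbol were examined in MIA PaCa-2, a long-established line of human pancreatic cancer cells, with and without rhCYGB, the recombinant human form of the oxygen-binding protein cytoglobin made in E. coli. The table of 35993 genes lists 1729 such symbols. A gene was taken as detected when its read count was 10 or more in all 3 untreated or in all 3 rhCYGB libraries, and 170 genes (9.83% of the LINC symbols) met this. Of these, 113 reached 10 counts in all 6 libraries, 50 did so in the untreated libraries only and 7 in the rhCYGB libraries only. A further 1358 LINC symbols had 0 counts in every library, and 201 had some counts but too few. The genes were thus chosen by their read counts in these same libraries, so being detected is no result here.

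All cells had been placed in medium with 1% FBS the day before. The 3 untreated libraries then received no protein, and the 3 rhCYGB libraries came from cells given 4 µM of rhCYGB for 48 h. The comparison asks which transcripts differ after rhCYGB. The labels do not say that untreated cells received a vehicle, nor that libraries came from separate cultures, so the p-values measure the spread between these libraries, which may be technical.

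A long noncoding RNA is a transcript that is not read into a long protein. Many are made by RNA polymerase II, capped and spliced, yet are present at low levels, largely nuclear and quickly degraded. Some act on the gene next to them, others hold proteins in nuclear bodies or host small RNAs in their introns, and for most LINC numbers no function is established. A name ending in DT marks a transcript that starts beside a coding gene and runs away from it on the other strand.

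Totals on genes ranged from 34838399 to 42271299 counts per library. The markers of the line itself were high. KRT8 had 78515 to 96291 counts untreated and 39463 to 45811 after rhCYGB, VIM had 301699 to 359568 against 387120 to 447853, and KRT18 had 63337 to 74445 against 55766 to 65242. PECAM1, PTPRC, PRSS1 and CPA1, which mark endothelial, blood and acinar cells, were at 0 in all 6 libraries, and DES, COL1A1 and PDGFRB did not exceed 10 counts. ACTA2 had 210 to 243 counts untreated and 180 to 196 after rhCYGB. Other markers of endothelial and blood cells were well counted. CDH5, also an endothelial marker, had 4438 to 5428 counts untreated against 390 to 465 after rhCYGB. CD68, also a leukocyte marker, had 1335 to 1702 against 2410 to 2652. Between the groups there was no overlap in counts for KRT8, VIM, ACTA2, CDH5 and CD68. Their part in the results was not tested. All levels are relative to the library, so less RNA per cell and fewer cells of one kind cannot be told apart.

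The detected LINC genes took a small share of each library, and 1 gene held much of it. LINC02154 received 45.4%, 45.6% and 44.1% of all counts on the 170 genes in untreated libraries 1, 2 and 3. In rhCYGB libraries 1, 2 and 3 it received 68.0%, 65.6% and 66.7%. The group as a whole rose from 0.123% to 0.124% of library counts untreated to between 0.164% and 0.179% after rhCYGB, but without LINC02154 it went the other way, from between 0.0667% and 0.0687% to between 0.0564% and 0.0598%. More of the 170 genes were chosen through their untreated counts alone than through their rhCYGB counts alone, which tilts that sum. Over the genes at 10 or more counts in all 6 libraries, again without LINC02154, the share was 0.0632% to 0.0649% untreated and 0.0552% to 0.0585% after rhCYGB. Fewer LINC symbols had any count after rhCYGB. There were 277, 272 and 287 in the untreated libraries and 238, 224 and 236 in the rhCYGB libraries. The same count was not made over all genes. By the rule of 10 counts, all genes leaned the same way, with 5.45% of those passing found untreated only and 2.40% after rhCYGB only.

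Per length, LINC02154 stood far above the others. FPKM, a deposited value, divides the fragments of a gene by the length of its transcript and by the size of the library. The level of LINC02154 was 347, 346 and 339 FPKM in untreated libraries 1 to 3 and 758, 645 and 755 FPKM in rhCYGB libraries 1 to 3. All rhCYGB values lay above all untreated values, and the mean over the 6 libraries, 531 FPKM, ranked 123 among all 35993 genes. The next gene, LINC01578, had a mean of 17.8 FPKM, so LINC02154 was 29.9-fold above it. Only 61 of the 170 genes had a mean above 1 FPKM, and the median was 0.607 FPKM. Among genes at 10 or more counts in all 6 libraries the median mean level was 1.19 FPKM for the 113 LINC genes, 1.10 FPKM for 582 other lncRNA genes and 7.78 FPKM for 11851 protein-coding genes.

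LINC02154 lies on the minus strand of chromosome X at 13284167 to 13321571 in the positions of the deposited transcript table, whose genome build is not named and which do not match GRCh38. It is listed with 1 transcript of 1421 bases, and the nearest coding gene, ATXN3L, had 0 counts in all 6 libraries. Of the 31-base words of its GENCODE v29 transcript, 1.09% also occurred in transcripts of other genes, so its sequence was nearly unique among them.

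After LINC02154, the order of mean levels was LINC01578, LINC00847, LINC01184, LINC01010, LINC01278, LINC01000, LINC01003, LINC00339 and LINC00525. LINC01578 had 10.3 ± 0.635 FPKM untreated and 25.2 ± 2.56 FPKM after rhCYGB (SD, n = 3 each), and LINC01000 had 3.01 ± 0.267 and 8.43 ± 1.12 FPKM. The order thus depended on the group, since LINC01000 was the lowest of the 10 untreated and the third after rhCYGB. Neighbours in the order overlapped from LINC00847 to LINC01010, with untreated levels of 9.27 ± 0.419, 8.59 ± 0.826 and 8.84 ± 0.454 FPKM. Of these 10 genes, 3 were called changed as defined below (LINC02154, LINC01578 and LINC01000, all higher), 5 passed the test with a change under 2-fold and 2 did not pass. For those 2, LINC01278 and LINC01003, the log2 fold change was 0.03 (95% interval -0.18 to 0.24) and 0.14 (95% interval -0.23 to 0.50). SGK1, the coding gene nearest to LINC01010, encodes a kinase induced by serum and glucocorticoids and was called higher with a log2 fold change of 1.23, while LINC01010 was at -0.25.

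**Figure D1:**
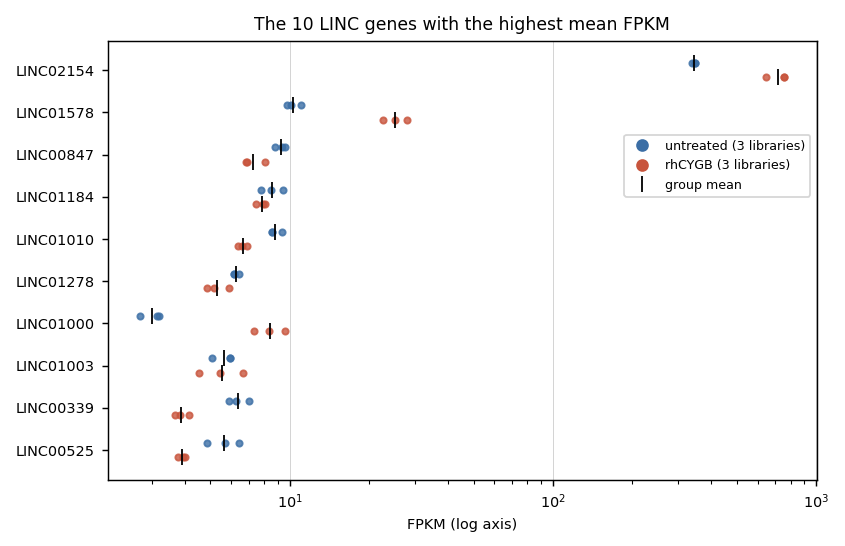
FPKM on a log axis for the 10 LINC genes with the highest mean level, with a point per library and a bar at each group mean (blue untreated, red rhCYGB, 3 libraries each). LINC02154 lies between 339 and 758 FPKM, apart from the others, and LINC02154, LINC01578 and LINC01000 show no overlap between the groups.

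Changes were tested in the 113 LINC genes that reached 10 counts in all 6 libraries, with edgeR's quasi-likelihood test over all 14728 genes tested, and a gene was called at a Benjamini-Hochberg adjusted p under 0.05 with a fold change of 2 or more. Of these 113, 36 were lower after rhCYGB (31.9%), against 14.7% of all genes tested. A further 12 were higher (10.6%), against 12.4% of all genes tested. Among genes held to the same minimum in all 6 libraries, 12.5% were lower and 11.9% higher, and among the other lncRNA genes 20.4% were lower and 11.3% higher. Of protein-coding genes at that minimum 12.2% were lower and 11.8% higher. Calls in either direction reached 42.5% of the 113 genes, against 27.1% of all genes tested, 24.3% of those at the same minimum, 31.8% of the other lncRNA genes and 23.9% of protein-coding genes. The median log2 fold change of the 113 genes was -0.23, beside 0.03 for all genes at that minimum, -0.25 for the other lncRNA genes and 0.03 for protein-coding genes. The middle of the 113 changes thus lay near that of the other lncRNA genes.

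With the adjusted p alone, 24 of the 113 were higher (21.2%) and 48 lower (42.5%), against 39% and 38.6% of all genes tested, 41% and 38.7% of those at the same minimum, 21.3% and 38.1% of the other lncRNA genes and 42.9% and 39.9% of protein-coding genes. Of the 113, 24 thus passed with a change under 2-fold and 41 did not pass. The groups did not overlap in 69 of the 113 (61.1%), against 79.5% of all genes tested, 81.4% of those at the same minimum, 63.6% of the other lncRNA genes and 84.1% of protein-coding genes. All 48 called genes were without overlap, which a call made on these same libraries favours. Replicates of these genes spread widely, with a median coefficient of variation within a group of 15.0% at a median mean of 98.8 counts, against 5.26% at 1162 counts for protein-coding genes. The 4 genes called higher with the smallest changes, LINC01006, LINC00999, LINC02749 and LINC01002, fell under 2-fold when libraries were scaled by total counts, which lowered the median of all genes from -0.0046 to -0.17.

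**Figure D2:**
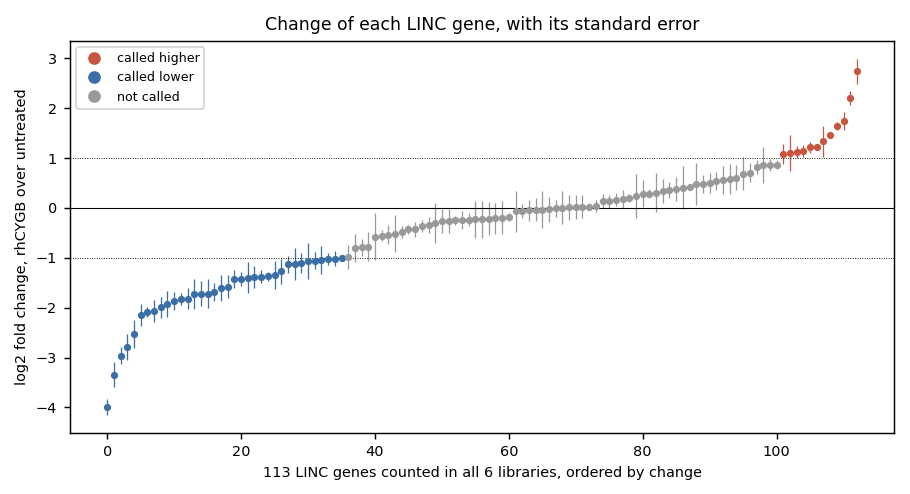
The log2 fold change of each of the 113 LINC genes counted in all 6 libraries, rhCYGB over untreated, ordered from lowest to highest, with bars of 1 standard error. Blue points are the 36 called lower, red points the 12 called higher and grey points the rest, and the values run from -3.99 to 2.73 with dotted lines at a 2-fold change.

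The genes called higher were led by LINC01012 on chromosome 6. Its counts were 19, 14 and 17 untreated and 104, 83 and 108 after rhCYGB. All rhCYGB libraries were thus far above the untreated ones, with a log2 fold change of 2.73 ± 0.26 (standard error, n = 3 each, adjusted p = 1.21e-07). LINC00662 on chromosome 19 followed with 61, 86 and 67 counts untreated and 319, 251 and 294 after rhCYGB, a log2 fold change of 2.21 ± 0.14 (n = 3 each, edgeR adjusted p = 1.04e-09). It lies 1411379 bases from the nearest coding gene, UQCRFS1, whose log2 fold change was -0.43. LINC01347 had 48, 62 and 55 counts untreated and 149, 150 and 183 after rhCYGB, and LINC01881 had 19, 31 and 21 against 41, 65 and 49. Their log2 fold changes were 1.74 and 1.34.

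LINC01578 is CHASERR in current RefSeq naming, a transcript upstream of CHD2 known in the mouse to restrain that gene, which encodes a chromatin remodeller. The counts of LINC01578 were 745, 799 and 747 untreated and 2086, 1592 and 1855 after rhCYGB, a log2 fold change of 1.46 ± 0.07 (n = 3 each, edgeR adjusted p = 2.46e-11). CHD2, on the same strand 1577 bases away, had 2564, 3013 and 2948 counts untreated and 4398, 4061 and 4754 after rhCYGB. Both were higher in every rhCYGB library, and CHD2 passed the test with a log2 fold change of 0.83, short of 2-fold. In the GENCODE transcripts 7.39% of the 31-base words of LINC01578 occur in another gene.

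LINC02154, described above, had 19826, 23669 and 20860 counts untreated and 47831, 37555 and 46652 after rhCYGB, a log2 fold change of 1.23 ± 0.05 (n = 3 each, edgeR adjusted p = 1.60e-12). LINC01000 went from 1317, 1551 and 1202 counts to 3806, 3093 and 4280, with a log2 fold change of 1.65, but its locus overlaps the pseudogene CICP14, and the 2 cannot be told apart where they share sequence. The other 5 genes called higher were LINC02693, LINC01006, LINC00999, LINC02749 and LINC01002, with log2 fold changes from 1.21 to 1.07. LINC01006 is RNF32-DT, whose start lies 124 bases from that of RNF32. It had 139, 226 and 210 counts untreated and 385, 346 and 370 after rhCYGB, while RNF32 had 66 to 69 untreated and 69 to 82 after rhCYGB and did not pass the test. LINC02749 was at only 12 to 14 counts untreated and 23 to 26 after rhCYGB, and without untreated library 2 its adjusted p was 0.0528.

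Several of the higher genes share much of their sequence with other genes. Of the 170 genes, 151 were found in GENCODE v29, and in 12 of them over 50% of the 31-base words also occurred in transcripts of other genes. Among these 12, LINC01002 (95.7%), LINC01347 (78.5%) and LINC01881 (68.2%) were called higher and LINC01106 (93.6%), LINC01123 (95.2%) and LINC01089 (56.5%) lower. The deposited counts of such genes are uncertain, since reads from shared sequence can be split between genes. Repeated copies were not told apart from overlapping transcripts, and RHOF held all of the shared words of LINC01089.

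The genes called lower changed more. LINC01963 on chromosome 2 had 483, 644 and 520 counts untreated and 39, 22 and 29 after rhCYGB. This was the lowest value among the 113, 15.9-fold lower, with a log2 fold change of -3.99 ± 0.15 (n = 3 each, edgeR adjusted p = 2.75e-12). The nearest coding gene, XRCC5, which encodes the Ku80 subunit of DNA end joining, had a log2 fold change of -0.29. LINC01521 on chromosome 22 had 375, 513 and 486 counts untreated and 24, 24 and 70 after rhCYGB, a log2 fold change of -3.34 ± 0.26 (n = 3 each, edgeR adjusted p = 9.22e-09). Its start lies 413 bases from that of PATZ1, a zinc finger gene on the opposite strand whose log2 fold change was 0.56, so the pair of neighbours moved in opposite directions.

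LINC01224 on chromosome 19 went from 258, 320 and 316 counts untreated to 38, 25 and 37, a log2 fold change of -2.96. LINC02101 on chromosome 5 had 160, 164 and 146 counts untreated and 30, 11 and 19 after rhCYGB, a log2 fold change of -2.78. The coding gene nearest to LINC02101, PLK2, a polo-like kinase gene induced by stress, was called higher with a log2 fold change of 1.15, across a gap of 331641 bases. LINC02562 on chromosome 4 had 114, 127 and 158 counts untreated and 12, 28 and 20 after rhCYGB, a log2 fold change of -2.52.

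LINC01351 is BRINP3-DT, and its start lies 396 bases from that of BRINP3, a gene best known from the nervous system. LINC01351 had 113, 156 and 115 counts untreated and 26, 24 and 25 after rhCYGB, a log2 fold change of -2.15 ± 0.21 (n = 3 each, edgeR adjusted p = 2.14e-07). BRINP3 had 2123, 2567 and 2483 counts untreated and 151, 172 and 199 after rhCYGB, a log2 fold change of -3.58. Both members of this divergent pair were thus called lower and, as such a call favours, were without overlap between the groups.

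LINC00518 and TFAP2A, which encodes the transcription factor AP-2 alpha, were also lower together. LINC00518 had 104, 157 and 138 counts untreated and 32, 27 and 28 after rhCYGB, and its log2 fold change was -1.99 beside -1.80 for TFAP2A. LINC01560 had 366, 443 and 407 counts untreated and 92, 106 and 100 after rhCYGB. It overlaps the start of the zinc finger gene ZNF41 on the other strand, with log2 fold changes of -1.83 for LINC01560 and -1.05 for ZNF41. The library kit keeps strand, but whether the counting used it is not given in the sources used here, so reads of such overlapping pairs may be mixed.

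LINC01588 had the highest counts among the 12 largest falls, 1019, 1172 and 1069 untreated and 205, 253 and 210 after rhCYGB, a log2 fold change of -2.09. It overlaps LINC01599, which was also called lower. LINC00857 had 185, 224 and 189 counts untreated and 32, 30 and 63 after rhCYGB, a log2 fold change of -2.06, while ANXA11, a divergent neighbour that encodes annexin A11, had a log2 fold change of -0.31. LINC01011 and LINC01106 had log2 fold changes of -1.92 and -1.86, and 90.96% of the words of LINC01106 occur in LINC01123, which was also called lower. The remaining 24 genes called lower had log2 fold changes from -1.82 to -1.01. LINC00673, named here after its values were seen because its locus is linked to inherited risk of pancreatic cancer, was among them with 65, 102 and 75 counts untreated and 25, 16 and 28 after rhCYGB.

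**Figure D3:**
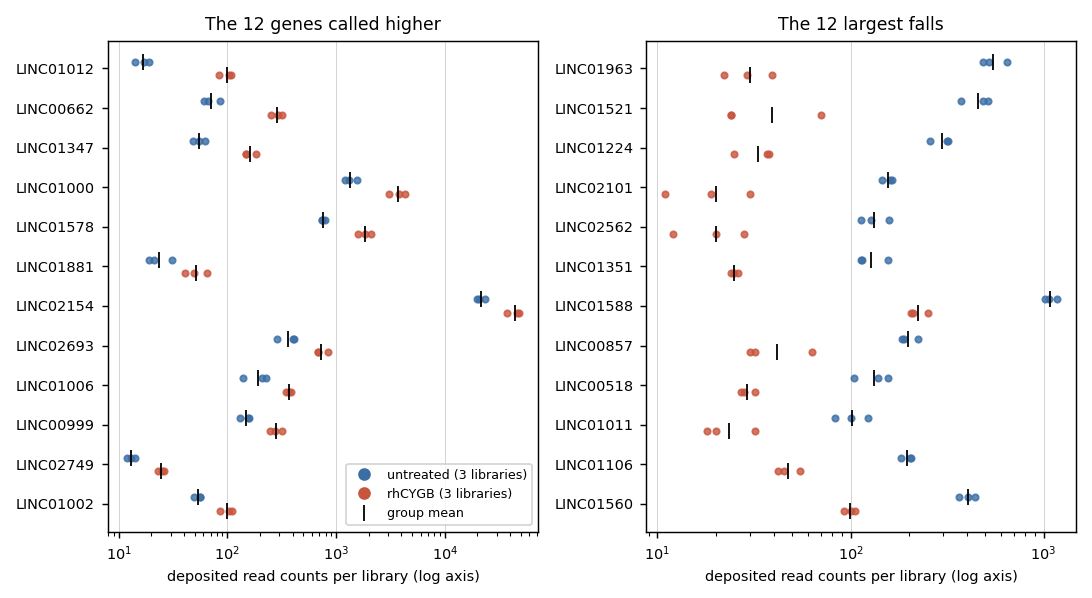
Deposited read counts per library, on log axes, for the 12 LINC genes called higher (left) and the 12 largest falls (right), with a bar at each group mean (blue untreated, red rhCYGB, 3 libraries each). The groups do not overlap in any of the 24 genes, which were picked by their calls in these libraries. LINC01963 fell from between 483 and 644 counts to between 22 and 39.

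Promoter sequences are shown for 6 of the genes that changed most and have an entry in the RefSeq promoter table (GRCh38.p14), 3 called higher and 3 called lower. Each runs 5′ to 3′ on the strand of the gene, from 250 bases before the start, and capitals mark the 50 bases from the start on. They lie at chr6:27693785-27694084 (plus), chr19:27793891-27794190 (minus), chr15:92882593-92882892 (plus), chr22:31346509-31346808 (plus), chr19:23416025-23416324 (minus) and chr1:190478010-190478309 (plus), in the order printed.
LINC01012, higher: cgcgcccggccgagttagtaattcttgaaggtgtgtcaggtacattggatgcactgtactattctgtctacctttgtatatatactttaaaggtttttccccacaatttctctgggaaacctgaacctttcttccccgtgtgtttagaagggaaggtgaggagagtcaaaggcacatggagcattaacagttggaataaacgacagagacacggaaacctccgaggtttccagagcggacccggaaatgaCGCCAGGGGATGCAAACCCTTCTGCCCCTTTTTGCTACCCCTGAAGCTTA
LINC00662, higher: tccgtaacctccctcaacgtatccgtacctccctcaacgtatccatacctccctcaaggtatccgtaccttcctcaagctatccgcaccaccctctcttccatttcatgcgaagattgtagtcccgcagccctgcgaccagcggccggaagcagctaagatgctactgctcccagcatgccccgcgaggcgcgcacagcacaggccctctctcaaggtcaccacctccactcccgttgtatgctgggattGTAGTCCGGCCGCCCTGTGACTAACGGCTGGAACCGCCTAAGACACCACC
LINC01578, higher: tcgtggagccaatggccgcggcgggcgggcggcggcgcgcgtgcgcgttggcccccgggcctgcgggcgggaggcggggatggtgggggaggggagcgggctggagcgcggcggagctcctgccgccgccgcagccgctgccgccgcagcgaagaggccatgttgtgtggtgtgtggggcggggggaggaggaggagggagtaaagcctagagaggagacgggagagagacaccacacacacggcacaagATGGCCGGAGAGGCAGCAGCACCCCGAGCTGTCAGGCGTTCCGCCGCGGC
LINC01521, lower: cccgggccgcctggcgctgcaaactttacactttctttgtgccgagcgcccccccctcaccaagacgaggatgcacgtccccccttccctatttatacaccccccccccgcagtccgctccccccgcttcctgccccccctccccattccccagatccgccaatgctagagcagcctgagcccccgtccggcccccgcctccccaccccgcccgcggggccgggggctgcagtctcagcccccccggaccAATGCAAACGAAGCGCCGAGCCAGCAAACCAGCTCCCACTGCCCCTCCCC
LINC01224, lower: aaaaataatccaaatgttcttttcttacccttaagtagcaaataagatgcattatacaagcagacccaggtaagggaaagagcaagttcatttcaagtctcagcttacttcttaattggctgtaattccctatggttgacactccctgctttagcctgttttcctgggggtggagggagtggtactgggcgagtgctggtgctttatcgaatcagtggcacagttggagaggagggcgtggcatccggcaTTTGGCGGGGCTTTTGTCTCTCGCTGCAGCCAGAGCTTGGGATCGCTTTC
LINC01351, lower: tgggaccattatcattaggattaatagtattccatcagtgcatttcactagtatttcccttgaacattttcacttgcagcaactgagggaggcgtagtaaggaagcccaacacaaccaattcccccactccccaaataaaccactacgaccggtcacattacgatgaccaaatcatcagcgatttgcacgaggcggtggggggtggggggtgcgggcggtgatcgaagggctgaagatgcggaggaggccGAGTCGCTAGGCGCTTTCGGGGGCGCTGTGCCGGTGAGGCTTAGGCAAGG
Their base composition differed, with 74.7% G or C in LINC01578 and 70.7% in LINC01521 but 48% in LINC01012 and LINC01224.

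Of the 170 genes, 127 had a promoter in that table, and 8 short motifs were searched on both strands over the 300 bases. AP-1 (TGANTCA) was found in 12 of the 127 (9.45%), against 7.76% of all 27305 promoters. The E-box (CACGTG) was found in 13 (10.2%, against 7.44%), the NRF2 motif (TGACNNNGC) in 18 (14.2%, against 13.6%) and the heat shock motif (GAANNTTC) in 12 (9.45%, against 6.87%). The CREB and ATF motif (TGACGTCA) was found in 3 (2.36%, against 1.98%), the ATF4 and CHOP motif (TGATGCAA) in 2 (1.57%, against 0.923%), the E2F motif (TTTNGCGC) in 1 (0.787%, against 1.83%) and the TATA box (TATAAA) in 13 (10.2%, against 11.95%). Each motif was counted on its own, whether or not its letters overlapped another. The shares thus lay near those of all promoters. Of the 6 printed promoters only that of LINC01521 held any of the 8, a TATA box motif 159 bases before the start. It lies on the strand opposite to the gene and reads TTTATA in the printed sequence. Among the 23 genes called lower that have a promoter, 5 held TATAAA, 1 the NRF2 motif, 1 the ATF4 and CHOP motif and 0 any of the other 5 motifs. Among the 6 called higher, 1 held AP-1 and 0 any of the other 7. A match is a run of letters and not a shown binding site.

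The 57 LINC genes at 10 or more counts in 1 group only had to differ by the way they were chosen, so their counts are given without a test. The 50 found in the untreated libraries only made up 29.4% of the 170 genes, and the 7 found in the rhCYGB libraries only made up 4.12%. By the same rule these shares were 21.1% and 5.31% of 791 other lncRNA genes and 5.45% and 2.40% of all 14537 genes that pass it. Counts were low throughout, from 10 to 85 in the untreated libraries of the 50, with 2 of them at 0 in all 3 rhCYGB libraries and 28 at 0 in at least 1. A count of 0 allows up to 3 counts at this depth. Even within these groups the libraries overlapped in 9 of the 50 and 2 of the 7.

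LINC01132 had the highest counts of the 50, with 59, 77 and 85 untreated and 0, 0 and 8 after rhCYGB. IRF2BP2, the coding gene nearest to it, encodes a transcriptional corepressor and was called higher, with a log2 fold change of 1.50. LINC02012 had 69, 76 and 81 counts untreated and 15, 8 and 5 after rhCYGB. LINC02348 had 35, 62 and 75 against 3, 0 and 7, and LINC01909 had 37, 68 and 50 against 6, 0 and 0. All 4 were well above their rhCYGB counts in every untreated library, which their choice by untreated counts favours. LINC00473, a transcript known to be induced through CREB when cyclic AMP rises, had 52, 41 and 36 counts untreated and 7, 0 and 0 after rhCYGB.

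Several genes with a current name tied to a partner were in the same set. LINC00565 is SWINGN, named for the chromatin complex SWI/SNF and for GAS6, which encodes a ligand of the TAM receptor kinases. It had 19, 56 and 36 counts untreated and 3, 2 and 3 after rhCYGB, and GAS6 was called lower with a log2 fold change of -1.14. LINC02206 is SMASR, near SMAD3, which carries signals of the TGF-beta receptors. It had 21, 42 and 26 counts against 6, 0 and 5, and SMAD3 was called lower with a log2 fold change of -1.30. LINC00461 is MIR9-2HG, the host of a miR-9 precursor, with 27, 40 and 43 counts against 6, 0 and 4. LINC02657 is LASTR, named for the splicing factor SART3, with 12, 44 and 27 counts against 7, 0 and 10. Untreated library 1 was the lowest of the untreated libraries in each of these 4. Its total was 35258179 counts, against 42271299 and 38522502 in untreated libraries 2 and 3. The part of library size was not tested.

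Other nearest coding genes of this set did not go one way. PDZK1IP1 beside LINC00853 and NFAM1 beside LINC01315 were called lower, with log2 fold changes of -1.48 and -3.60. NFAM1 was itself near the limit of detection, with 19, 39 and 44 counts untreated and 7, 0 and 0 after rhCYGB. The size of its change is thus uncertain (standard error 0.71). RAP2B beside LINC02006 and CTC1 beside LINC00324 were called higher, with log2 fold changes of 1.69 and 1.43, although both LINC genes had fewer counts after rhCYGB. LINC00324 had 47, 48 and 33 counts untreated and 5, 4 and 6 after rhCYGB. The rest of the 23 in this set that reached 30 counts in a library were LINC01534, LINC00933, LINC01843, LINC01134, LINC01659, LINC01341, LINC02683, LINC00852, LINC01977 and LINC01970.

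In the other direction, 4 of the 7 genes reached 30 counts. LINC01564 had 3, 0 and 0 counts untreated and 29, 31 and 35 after rhCYGB. LINC01629 had 4, 0 and 10 against 37, 47 and 29, LINC00310 had 10, 6 and 17 against 36, 42 and 49, and LINC01176 had 0, 9 and 14 against 19, 26 and 32. The groups did not overlap in these 4. At the limit of detection, LINC01140 (12, 10 and 13 counts untreated, 0 in each rhCYGB library) and LINC00926 (10, 11 and 13, then 10, 0 and 4) were just inside the rule. LINC00457 (22, 9 and 25, then 9, 4 and 5) and LINC01473 (6, 4 and 5, then 9, 26 and 23) were just outside it.

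**Figure D4:**
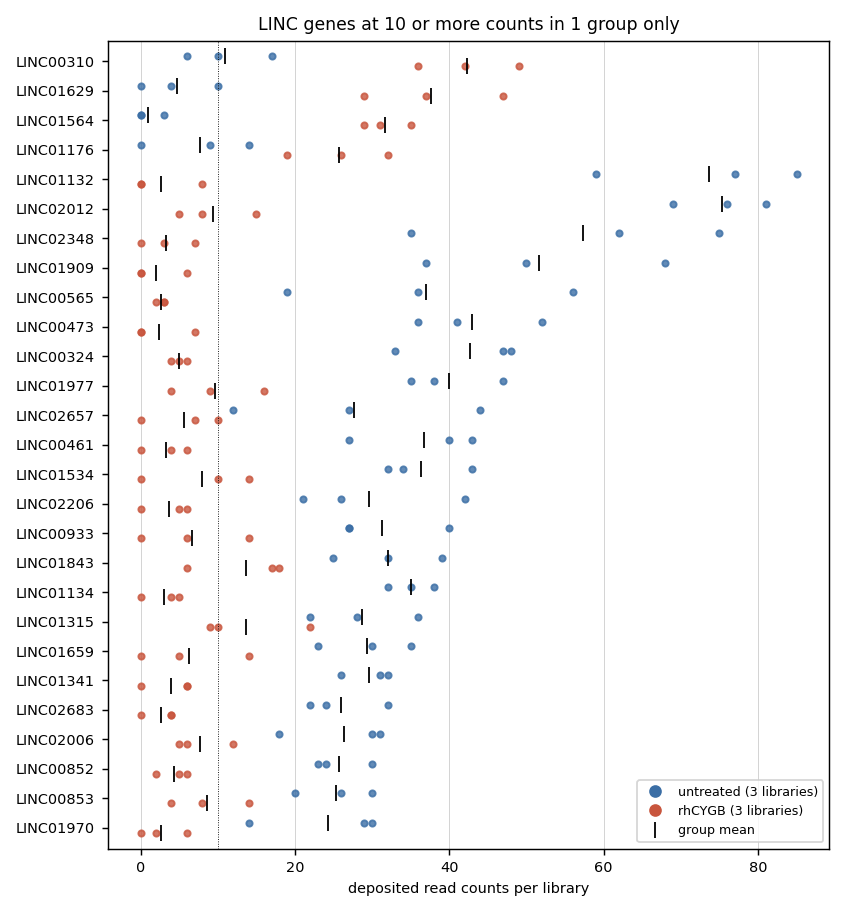
Deposited read counts per library for the 27 LINC genes at 10 or more counts in 1 group only that reached 30 counts in a library, with a bar at each group mean and a dotted line at 10 counts (blue untreated, red rhCYGB, 3 libraries each). The upper 4 genes were found in the rhCYGB libraries only and the lower 23 in the untreated libraries only, and the highest value is 85 counts for LINC01132.

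RefSeq now gives 21 of the 170 genes another name, and 9 of these names mark a transcript divergent from or antisense to a coding gene. In this set 13 were counted in all 6 libraries and 8 in the untreated libraries only. Of the 13, LINC01578 (CHASERR) and LINC01006 (RNF32-DT) were called higher, and LINC01351 (BRINP3-DT), LINC00476 (ERCC6L2-AS1), LINC02246 (ASMER1) and LINC00653 (LCDR) lower. LINC00476 had 197, 300 and 312 counts untreated and 40, 74 and 99 after rhCYGB, while ERCC6L2, whose start lies 286 bases from its own, had a log2 fold change of 0.27. LINC02246 had 639, 695 and 708 against 215, 231 and 243.

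The other 7 of the 13 were not called. LINC01184 (SLC12A2-DT, beside the gene of the cotransporter NKCC1) had 651, 739 and 818 counts untreated and 793, 659 and 775 after rhCYGB. It passed the test with a log2 fold change of 0.20 (edgeR adjusted p = 0.0249), although the groups overlapped. LINC00888 (SNHG33, whose locus holds SNORA63D and SNORA63E) had 234, 269 and 360 against 296, 259 and 271, with a log2 fold change of 0.13 (95% interval -0.26 to 0.52), and its nearest coding gene, MCF2L2, was called higher at 1.29. LINC00909 (ZNF407-AS1) passed the test with a log2 fold change of -0.48. LINC00346 (PRECSIT), LINC00638 (VESTAR), LINC00893 (EOLA1-DT) and LINC00894 (EOLA2-DT) did not pass, with log2 fold changes from -0.27 to 0.34. The groups overlapped in 6 of these 7, LINC00909 being the exception. The 8 found in the untreated libraries only include LINC01137 (LITATS1, known from TGF-beta signalling), LINC01534 (ZNF567-DT), LINC01715 (TAF12-DT) and LINC00672 (LASP1NB, now listed as protein-coding) beside the 4 given above. LINC01137 had 17, 13 and 23 counts untreated and 3, 3 and 7 after rhCYGB.

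The place of a LINC gene relative to the nearest coding gene was set against its change. Of the 113, 14 were divergent from a coding gene with starts at most 5000 bases apart, 2 others overlapped a coding gene and 97 were neither. In the divergent class 9 were called lower and 1 higher, with a median log2 fold change of -1.57, beside 14.7% lower and 12.4% higher among all genes tested. In the class that was neither, 27 were called lower and 11 higher, with a median of -0.07. The difference between the classes was not tested.

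Among the coding neighbours of the 14 divergent genes, BRINP3 and ZNF41 were called lower and none was called higher. Among all genes tested, 14.7% were called lower and 12.4% higher. Over 14 divergent pairs the log2 fold changes had the same sign in 8, and Pearson's r across pairs was 0.32, a description over pairs from the same libraries. Over all 87 pairs with a tested coding neighbour the sign was the same in 40 and r was 0.05. Of the 42 such pairs with a called LINC gene, 9 had both genes called, beside calls in 27.1% of all genes tested. They were lower together in the 3 described above (LINC00518, LINC01351 and LINC01560) and moved in opposite directions in 6, among them LINC02101 with PLK2, LINC01106 with LIMS4 at 1.23, LINC02693 with KCNJ12 at -1.35 and LINC02749 with RRM1 at -1.03, all log2 fold changes of the coding gene.

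Transcripts of 1 gene could also change their shares. The deposited transcript table lists 2 or more transcripts for 48 of the 170 genes, and 30 of these had a mean of at least 50 counts. In 7 of the 30 (23.3%) a transcript's share of the gene's counts moved by 20 percentage points or more between the group means. The libraries of the groups did not overlap in that share. The same held for 13.1% of the 8028 genes of the whole table with 2 or more transcripts and a mean of at least 50 counts. Beyond that minimum the genes were not matched in counts, and shares vary more at lower counts. The 769-base transcript of LINC00649 held 18.4%, 25.4% and 27.8% of its counts untreated and 75%, 80.8% and 77.6% after rhCYGB. LINC00649 itself was called lower with a log2 fold change of -1.69, and its 2657-base transcript went from a mean share of 76.2% to 22.2%.

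LINC01123 and LINC01224, both called lower, each kept nearly all counts in 1 transcript after rhCYGB. The 2519-base transcript of LINC01123 had a mean share of 45.0% untreated and 98.2% after rhCYGB, and the 2564-base transcript of LINC01224 had 33.7%, 80.3% and 20.3% untreated and 100% in each rhCYGB library. Without untreated library 2 the untreated mean of LINC01224 was 27.0% in place of 44.8%. The share of a 6527-base transcript of LINC01128 was 0% in every untreated library and 24.5%, 23.9% and 19.5% after rhCYGB, while the gene's own log2 fold change was 0.29. In LINC00630 a 4881-base transcript went from a mean share of 56.5% to 13.3%, and in LINC01572 a 4088-base transcript from 71.4% to 45.9%. In LINC01012 a 2771-base transcript went from 54.7% to 17.4%, but the gene had only 19, 14 and 17 counts untreated. The untreated shares of 63.2%, 71.4% and 29.4% rest on 12, 10 and 5 counts of that transcript. After rhCYGB that transcript had 23, 12 and 17 of 104, 83 and 108 counts. LINC01012 thus met the minimum mean count through its rhCYGB libraries, and its place among the 7 genes is uncertain. Reads shared by transcripts are divided by estimation, so all transcript shares carry more error than the gene counts.

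**Figure D5:**
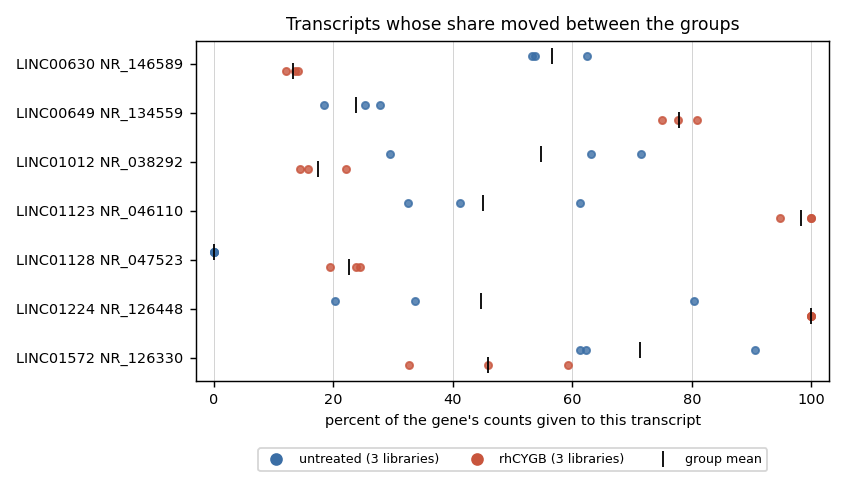
Percent of a gene's counts given to the transcript with the largest shift, per library, in the 7 LINC genes with a shift of at least 20 percentage points and no overlap between groups (blue untreated, red rhCYGB, bars at group means of 3 libraries). In LINC00649 the share rose from a mean of 23.8% to 77.8%, and in LINC00630 it fell from 56.5% to 13.3%.

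Well-known lncRNA genes outside the numbered set were read from a list of 42, of which 34 were tested. Of these, 6 were called higher and 5 lower, with a median log2 fold change of 0.17, beside 12.4% higher, 14.7% lower and a median of -0.0046 among all genes tested, so the counts lay near those of all genes. GAS5, a host of small nucleolar RNAs, had 5747, 7142 and 5962 counts untreated and 30256, 26160 and 28849 after rhCYGB, a log2 fold change of 2.37. EPB41L4A-AS1 had a log2 fold change of 2.37 as well, and TMPO-AS1, antisense to the gene of a nuclear lamina protein, had -2.85. The other genes called lower were TERC, HOTAIRM1, MIR210HG and DLEU2. The kit captures RNA by its poly(A) tail, so the level of RNAs without one, such as TERC, is not well measured.

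Genes that degrade nuclear noncoding RNA were read from a list of the exosome, its adaptors and related factors, 26 of which were tested. In it 12 passed the test higher and 11 lower, with a median log2 fold change of 0.07, near the 39% higher and 38.6% lower among all genes tested. Calls at 2-fold, made in 27.1% of all genes tested, were below that share here. The 3 that were called were ZCCHC8, a scaffold of the exosome-targeting complex NEXT, at 1.22, ZFC3H1, a subunit of the PAXT connection that targets polyadenylated nuclear RNA, at -1.31, and MPHOSPH6, an exosome cofactor, at -1.05. ZCCHC8 had 1032, 1164 and 1120 counts untreated and 2290, 2108 and 2367 after rhCYGB, and ZFC3H1 had 1473, 1749 and 1789 against 570, 506 and 687. The groups were apart in each of the 3, which their call favours. Of 19 genes of nonsense-mediated decay, 9 passed higher and 7 lower, also near the shares among all genes tested, and 1 was called, SMG1, the kinase of that pathway, with a log2 fold change of 1.03.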

How the data were processed

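RNA-seq libraries of MIA PaCa-2 cells, 3 untreated and 3 given rhCYGB, were used. The authors checked reads with FastQC 0.11.7, mapped the trimmed reads with HISAT2 2.1.0 and counted with StringTie 2.1.3b, versions being those in the submitters' processing notes. Those notes name the mouse build mm10 although the cells and symbols are human, and positions in the files reach 249231298 on chromosome 1, past the last GRCh38 gene end at 248937099, so the build is left unnamed. The authors deposited raw read counts per gene and per transcript, which are not normalized. FPKM values were deposited by the authors, scaled to transcript length and mapped reads. The 18 remaining columns of per-library values were not used.

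The members, gene lists and tests were chosen with earlier results of these data known. The counts were fitted with edgeR 4.0.16 in R 4.3.3 (filterByExpr, TMM scaling, quasi-likelihood test, two-sided, Benjamini-Hochberg adjustment over 14728 genes, no block) after a check on simulated counts. Standard errors come from the F statistic of that test, and intervals use 4 residual degrees of freedom. Neighbours and overlaps use the deposited positions, with strand known for 165 of 170 genes. Named genes were the 10 highest in FPKM, the 12 largest called changes each way, members of 1 group with 30 counts in a library, renamed members, those beside the limit of detection, the 3 largest called changes per list, and called coding neighbours of these, some of which are not reported here. Counting error is the only error that a limit for 0 counts covers. Alternatives were DESeq2 1.42.0, other scalings and filters, limma 3.58.1 on log2 FPKM, transcript sums, the replicate block and leaving out each library.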

Additional observations from a re-analysis of the deposited data

How the results depend on the processing

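The 36 and 12 called LINC genes stayed within 1.5 times of these counts under DESeq2's size factors and Wald test, no filter, a filter of 10 counts in every library, transcript sums and each library left out in turn, with 34 to 37 lower and 12 to 13 higher over these (34 to 36 lower with a library left out). Total counts gave 37 lower and 8 higher. With limma on log2(FPKM + 1), 11 of the 113 were lower and 5 higher, and 1977 of all 14728 genes were called (805 higher and 1172 lower). The 113 genes thus led all genes in lower calls by much less than in the main fit. Adding 1 to FPKM compresses changes at low levels by construction, and its part here was not tested. With log2(FPKM + 0.1), 32 of the 113 were lower and 7 higher. The median log2 fold change of the 113 genes was -0.39 with total counts, -0.13 with log2(FPKM + 1) and -0.31 with log2(FPKM + 0.1). No gene of nonsense-mediated decay was called under total counts or either limma setting, a count of 0 against 1. Directions reversed in 4 named genes with changes near 0, among them LINC01184, which had passed the main test as higher at 0.20. With total counts the log2 fold change was -0.14 for LINC01278, -0.031 for LINC01003 and -0.035 for LINC00888. With log2(FPKM + 1) it was -0.12 for LINC01184, -0.21 for LINC01278, -0.038 for LINC01003 and -0.015 for LINC00888, and with log2(FPKM + 0.1) -0.13, -0.24, -0.045 and -0.015. With each library left out in turn, LINC01278 ranged from -0.045 (without rhCYGB replicate 3) to 0.074, also turning without untreated replicate 1 (-0.018), and LINC01003 ranged from -0.0011 (without rhCYGB replicate 1) to 0.27. The cause was not tested.

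Replicate numbers are shared between the groups. Same-numbered libraries did not deviate together (correlations of -0.05, 0.01 and 0.01), and not every library correlated best with its own number. Over 3 libraries per group, such values cannot tell whether same-numbered libraries were handled together. With the replicate block 12 genes were higher and 35 lower, and no call of a named gene changed.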
